A study of Mus musculus with 43 samples.

Results

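The glucocorticoid receptor gene Nr3c1, the mineralocorticoid receptor gene Nr3c2 and 4 genes that respond to these receptors, Fkbp5, Sgk1, Tsc22d3 and Zbtb16, were followed in cortical neurons of enriched and standard-housed mice. The 6 genes were matched by symbol to Ensembl IDs and were all present among the 53379 IDs of each RNA table. Their open-chromatin regions were those overlapping a gene span, or lying within 10 kb of a gene start with that start as the nearest. A region overlapping a span was kept also where the start of another gene was nearer. This gave 125 of the 165184 regions of the female ATAC table and 159 of the 192919 regions of the male table.

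The series holds 43 libraries from frontal cortex of wild-type Swiss Webster mice weaned at postnatal day 25 and aged 2 months at collection. Mice lived in environmental enrichment (EE), a larger cage with a running wheel, a tube, more nesting material and toys swapped at intervals of days, or in standard housing (SH), a smaller cage with bedding and a nestlet. The labels name no transgene and no drug in any group. Nuclei were fixed with paraformaldehyde and sorted for NeuN, a protein of neuronal nuclei, before nuclear RNA-seq or ATAC-seq, an assay of where a transposase can reach the DNA. There were 6 EE and 6 SH libraries of female RNA, 6 EE and 6 SH of male RNA, 3 EE and 3 SH of female ATAC, and 6 EE and 7 SH of male ATAC. Females and males were tabulated apart, so sex and anything else that differs between their tables cannot be told apart. The labels do not say whether replicates are separate animals, so each p measures the spread between these libraries.

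Corticosterone, the main glucocorticoid of mice, crosses the cell membrane and binds receptors that chaperones hold in a ready state in the cytoplasm. The mineralocorticoid receptor binds it with high affinity and is largely occupied at resting hormone levels, whereas the glucocorticoid receptor fills at the daily peak and under stress. Hormone-bound receptors enter the nucleus, bind palindromic DNA elements and alter the transcription of targets, some of which, such as Fkbp5, in turn dampen the receptor.

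Library totals, in mega counts (M), were 11.5 to 15.4 M in female EE RNA and 10.6 to 13.2 M in female SH RNA, and 10.4 to 13.6 M in male EE RNA and 11.7 to 14.6 M in male SH RNA. For ATAC they were 23.6 to 26.3 M in female EE and 19.1 to 23.8 M in female SH, and 38.0 to 68.1 M in male EE and 27.7 to 73.8 M in male SH. All 9 neuronal markers listed were measured in both sexes, at a summed 7220 to 7830 CPM (counts per M library counts) in female EE, 7283 to 8067 in female SH, 7093 to 7782 in male EE and 6701 to 7317 in male SH. The mean log2 CPM of the markers of glia and vessels was 3.10 ± 0.43 in female EE and 3.06 ± 0.69 in female SH (SD, n = 6 each; exact permutation p = 0.929, two-sided). It was 2.84 ± 0.37 in male EE and 2.73 ± 0.21 in male SH (exact permutation p = 0.55). Female SH replicate 2 had the highest summed level of all 5 non-neuronal lists among the SH libraries, and its mean level was 4.40. In sorted bulk nuclei, fewer cells that use a gene and less RNA per cell cannot be told apart.

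In mm10, Nr3c2 (ENSMUSG00000031618) spans chr8:76899442-77245012 on the plus strand. Fkbp5 (ENSMUSG00000024222) spans chr17:28399095-28517524 on the minus strand, Sgk1 (ENSMUSG00000019970) chr10:21882184-21999903 on the plus strand, Tsc22d3 (ENSMUSG00000031431) chrX:140539528-140600659 on the minus strand and Zbtb16 (ENSMUSG00000066687) chr9:48654297-48836222 on the minus strand. RefSeq promoter sequences of GRCm38.p6, the same build, were held for 4 of the 6 genes, with 11 starts in all. The 250 bases before each start were searched on both strands for GNACA and TGTNC with 3 bases of any kind between them, a palindromic form of the glucocorticoid response element that reads the same on either strand, and for its hexamer arm TGTTCT, which can overlap it. The palindrome was found in 1 of the 11 sequences, before the Sgk1 start at position 21993890 of chromosome 10, against 0.387% of 32851 promoters of all genes. It lies 188 to 176 bases before that start, at chr10:21993702-21993714. The hexamer was found in 4 of the 11 sequences, against 16.1% of all promoters. The sequences shown are that Sgk1 promoter (chr10:21993640-21993889, plus strand), an Sgk1 promoter further upstream (chr10:21991973-21992222, plus strand), the outermost RefSeq promoter of Tsc22d3 (chrX:140600523-140600772, minus strand) and the Fkbp5 promoter (chr17:28486150-28486399, minus strand), 4 of the 8 windows that regions of both ATAC tables touch. They were picked as the window with the palindrome, 2 of the 3 with a hexamer alone, and the single Fkbp5 window. They run from 5′ to 3′, and capitals mark the palindrome and the hexamer on either strand.
Sgk1, palindrome and hexamers: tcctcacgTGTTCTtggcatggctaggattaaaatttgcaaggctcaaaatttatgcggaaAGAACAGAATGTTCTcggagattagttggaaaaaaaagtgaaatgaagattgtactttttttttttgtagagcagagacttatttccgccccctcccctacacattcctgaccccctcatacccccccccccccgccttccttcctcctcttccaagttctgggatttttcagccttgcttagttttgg
Sgk1, start further upstream: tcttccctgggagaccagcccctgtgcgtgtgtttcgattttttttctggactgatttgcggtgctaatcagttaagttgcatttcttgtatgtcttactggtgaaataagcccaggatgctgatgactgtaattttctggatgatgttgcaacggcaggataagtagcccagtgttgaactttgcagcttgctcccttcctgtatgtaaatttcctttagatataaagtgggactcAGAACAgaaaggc
Tsc22d3, outermost start: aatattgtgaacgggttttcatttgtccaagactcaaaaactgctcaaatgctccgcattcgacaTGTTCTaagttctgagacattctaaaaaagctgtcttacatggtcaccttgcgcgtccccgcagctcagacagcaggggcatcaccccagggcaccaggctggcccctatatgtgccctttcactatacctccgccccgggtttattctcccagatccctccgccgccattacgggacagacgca
Fkbp5: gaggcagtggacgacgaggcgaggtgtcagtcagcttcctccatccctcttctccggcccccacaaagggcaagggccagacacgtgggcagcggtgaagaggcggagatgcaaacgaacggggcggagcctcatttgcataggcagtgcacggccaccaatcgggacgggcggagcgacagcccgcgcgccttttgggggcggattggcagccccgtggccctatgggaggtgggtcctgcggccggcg
The Fkbp5 window held neither motif, and the upstream Sgk1 and the Tsc22d3 windows held 1 hexamer each. A match is a description of these letters and not evidence of binding.

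In female neurons, Nr3c1 RNA was lower in most EE libraries than in SH libraries, and in male neurons it was higher in most EE libraries, by a similar amount. Nr3c1 (ENSMUSG00000024431, chr18:39410545-39491301 in mm10, minus strand) encodes the receptor through which high corticosterone levels act. In female EE libraries it ranged from 114 to 137 CPM with a median of 128, and in female SH libraries from 134 to 169 CPM with a median of 139.7. Of the 6 female EE libraries, 5 lay below every SH library, and the exception was EE replicate 1 at 137 CPM. The means were 127 ± 7.95 CPM in EE and 145 ± 13.7 CPM in SH (SD, n = 6 each), a log2 fold change of -0.19 ± 0.06 (SE) with an adjusted p of 0.262 in edgeR's quasi-likelihood test and an unadjusted p of 0.00411. In male EE libraries Nr3c1 ranged from 113 to 122 CPM with a median of 118, and in male SH libraries from 98.9 to 115 CPM with a median of 104. Here 5 of 6 EE libraries lay above every SH library, and the groups overlapped only through EE replicate 5 at 113 CPM and SH replicate 5 at 115 CPM. The means were 118 ± 2.88 CPM in EE and 105 ± 5.92 CPM in SH (SD, n = 6 each), a log2 fold change of 0.17 ± 0.04 with an edgeR adjusted p of 0.196 and an unadjusted p of 0.000389. With DESeq2 the male adjusted p was 0.013, which is past the threshold of 0.05.

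Whether Nr3c1 differed between the sexes in its change was asked with the sex by housing interaction, fitted over all 24 RNA libraries. The log2 fold change of females minus that of males was -0.36 ± 0.07 (SE), with an edgeR adjusted p of 0.0861 and an unadjusted p of 2.48e-05. The interaction test called 1 of 15562 genes (0.00643%) and 0 of the 6 genes followed here, while 8.98% of all genes had an unadjusted p under 0.05. For Nr3c1 the call depended on the method and on the libraries. With DESeq2, which called 92 of all genes in this test, the adjusted p was 0.00122. With limma voom, which called 1 of all genes, it was 0.0869. Leaving out female EE replicate 1 gave 0.0178. Leaving out SH replicate 2 of the females gave 0.0221, their SH replicate 6 gave 0.0375, and SH replicate 5 of the males gave 0.0349. Over all 29 alternatives it ran from 0.00122 to 0.145, and the difference from -0.39 to -0.32. With the level of glial and vascular markers as a covariate, the log2 fold change was -0.19 in females (adjusted p = 0.144) and 0.16 in males (adjusted p = 0.175). In male RNA 10 of 11 astrocyte markers and 10 of 10 oligodendrocyte markers were higher in EE, with a summed 919 to 1079 CPM in EE and 834 to 950 CPM in SH for astrocytes, and 107 to 271 CPM in EE and 122 to 164 CPM in SH for oligodendrocytes. In female RNA the counts of these 2 lists ran the other way. There 3 of 11 astrocyte markers and 1 of 10 oligodendrocyte markers were higher in EE. The median log2 fold changes of astrocyte and oligodendrocyte markers were -0.21 and -0.09 in females, and 0.20 and 0.33 in males. At an unadjusted edgeR p under 0.05 there were 4 and 0 in females, against 8.67% of all genes. In males there were 2 and 2, against 8.03% of all genes. The summed levels were 993 to 1283 CPM in female EE and 1044 to 1613 CPM in female SH for astrocytes. For oligodendrocytes they were 156 to 281 CPM in EE and 139 to 432 CPM in SH. Higher in EE were also 0 of 5 microglial markers in females and 2 of 5 in males. For oligodendrocyte precursors it was 3 of 4 and 1 of 4, and for vascular cells 3 of 7 and 4 of 6. Summed microglial markers were 37.8 to 61.6 CPM in female EE and 41.1 to 98.5 CPM in female SH. In males they were 1306 to 1934 CPM in EE and 1431 to 2045 CPM in SH. Such a sum can rest on few genes, and the level of each microglial marker is not given here. The mean log2 CPM of all glial and vascular markers was not higher in males. It was 2.84 in male EE and 2.73 in male SH, against 3.10 in female EE and 3.06 in female SH. The part of these cells in the Nr3c1 differences was not tested further.

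**Figure D1:**
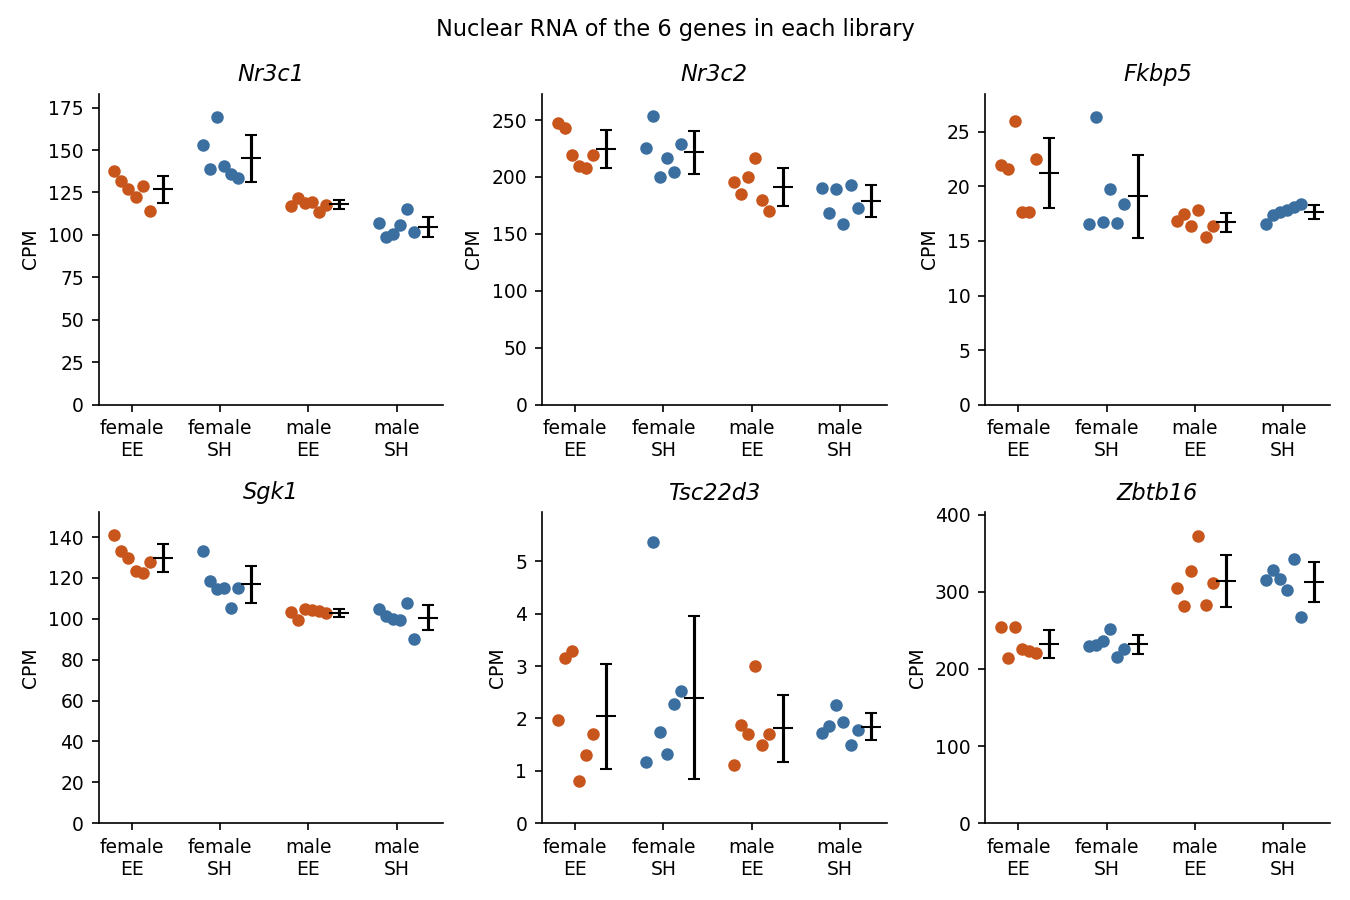
Nuclear RNA of the 6 genes, in CPM (y axis), for each library by sex and housing (x axis); dots are libraries, bars the mean and SD of 6 libraries. Nr3c1 sits lower in EE than in SH in females and higher in males, and Zbtb16 overlaps between EE and SH in each sex.

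Nr3c2 encodes the receptor that is occupied at low corticosterone, and its RNA did not differ detectably with housing in either sex. It ranged from 208 to 247 CPM with a median of 219 in female EE and from 200.3 to 253 CPM with a median of 221 in female SH. In males it ranged from 170.4 to 217 CPM with a median of 190.4 in EE and from 159 to 193 CPM with a median of 181 in SH. The groups overlapped in both sexes, although 3 male EE libraries lay above every male SH library. The log2 fold change was 0.02 ± 0.06 in females (edgeR adjusted p = 0.959) and 0.10 ± 0.06 in males (adjusted p = 0.709). A gene of 295.4 kb, Gm10649, overlaps Nr3c2 on the opposite strand, and whether the counting used strand is not given in the sources used here. Gm10649 averaged 43.4 CPM in female EE and 46.1 CPM in female SH, and 34.5 CPM in male EE and 32.8 CPM in male SH, so reads of the pair may not be fully told apart.

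Among the targets, Sgk1 had the largest ratio of change to error in females. Sgk1 encodes a kinase that controls ion channels and transporters and is induced by both receptors. It ranged from 123 to 141 CPM with a median of 129 in female EE and from 105 to 133 CPM with a median of 115 in female SH. All 6 EE libraries lay above the SH median and 5 of 6 SH libraries below the lowest EE library. The log2 fold change was 0.15 ± 0.05, with an edgeR adjusted p of 0.392 and an unadjusted p of 0.0118. In males Sgk1 ranged from 99.5 to 105 CPM with a median of 104 in EE and from 89.9 to 108 CPM with a median of 101 in SH. The male EE libraries sat inside the SH range, with a log2 fold change of 0.03 ± 0.04 (adjusted p = 0.886).

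Fkbp5 encodes a co-chaperone that lowers the hormone affinity of the glucocorticoid receptor and is itself induced by it. In females it ranged from 17.6 to 26.0 CPM with a median of 21.8 in EE and from 16.5 to 26.3 CPM with a median of 17.6 in SH. All 6 EE libraries lay above the SH median, but SH replicate 2 was the highest of the 12. The log2 fold change was 0.15 ± 0.12 (edgeR adjusted p = 0.781), 0.26 without SH replicate 2 (adjusted p = 0.285) and 0.0841 without EE replicate 3 (adjusted p = 0.912). In males Fkbp5 ranged from 15.4 to 17.8 CPM with a median of 16.6 in EE and from 16.5 to 18.4 CPM with a median of 17.7 in SH. The male groups overlapped, with a log2 fold change of -0.08 ± 0.06 (adjusted p = 0.783).

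Tsc22d3 encodes GILZ, a leucine zipper protein that carries part of the anti-inflammatory action of glucocorticoids, and it was measured with few reads. Its raw counts ran from 11 to 69 per female library and from 11 to 41 per male library. In CPM it ranged from 0.805 to 3.28 with a median of 1.84 in female EE and from 1.17 to 5.38 with a median of 2.01 in female SH. In male EE it ranged from 1.11 to 3.00 with a median of 1.70, and in male SH from 1.49 to 2.26 with a median of 1.82. The groups overlapped in both sexes, with log2 fold changes of -0.25 ± 0.40 in females (edgeR adjusted p = 0.917) and 0.00 ± 0.21 in males (adjusted p = 0.999). The highest female value, 5.38 CPM, belonged to SH replicate 2, and without that library the log2 fold change was 0.16. At this depth a change of this gene smaller than its error, or not far above it, would not have been called.

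Zbtb16 encodes PLZF, a zinc finger repressor whose transcript rises strongly with glucocorticoids in many human and rodent cells. It ranged from 214 to 255 CPM with a median of 225 in female EE and from 216 to 252 CPM with a median of 231 in female SH. In males it ranged from 281 to 373 CPM with a median of 308 in EE and from 268 to 343 CPM with a median of 317 in SH. The groups overlapped almost wholly, and the log2 fold changes were 0.00 ± 0.05 in females (edgeR adjusted p = 0.998) and 0.01 ± 0.07 in males (adjusted p = 0.991).

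All 6 genes passed the low-count filter in both RNA tables, and edgeR called 0 of 6 in each. The background was 0.0% of 14587 genes called in female RNA and 0.0411% of 14597 genes called in male RNA. At an unadjusted p under 0.05 there were 2 of 6 genes in females, against 8.67% of all genes. These were Nr3c1, lower in EE (4.14% of all genes were), and Sgk1, higher in EE (4.53%). In males there was 1 of 6, Nr3c1, higher in EE, against 8.03% of all genes, 4.09% higher and 3.94% lower. DESeq2 called 0 of the 6 genes in females and 1 in males, against 121 and 49 of all genes. Limma voom called 0 in each, against 0 and 5 of all genes. In the interaction test the other 5 genes had adjusted p-values from 0.638 to 0.991.

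**Figure D2:**
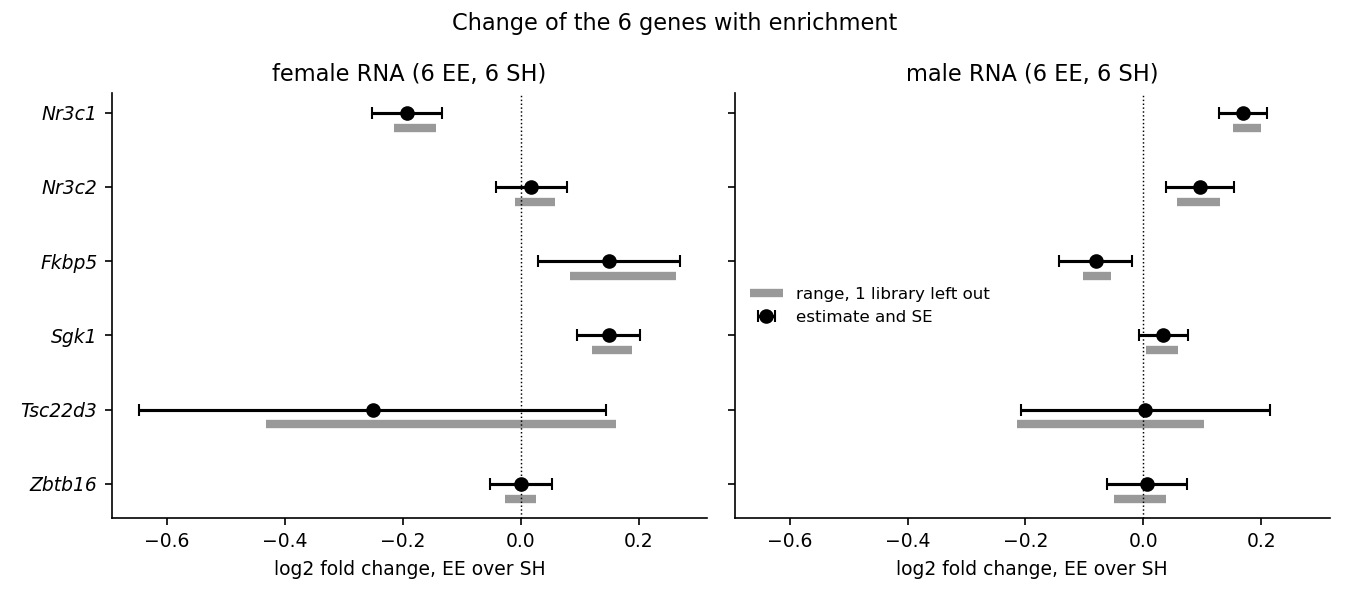
Log2 fold change of EE over SH (x axis) for each gene (y axis) in female and male RNA; dots and whiskers are the edgeR estimate and its SE, grey bars the range of estimates when each library in turn is left out. Nr3c1 lies at -0.19 in females and 0.17 in males and keeps its side of 0 throughout. The bars of Tsc22d3 and Zbtb16 cross 0 in both sexes, and that of Nr3c2 crosses 0 in females.

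Levels of different genes were compared only per kb of gene span, since the reads cover introns as well as exons. The span is that of the whole Ensembl gene. In females the strongest open region lay 113.4 kb inside the 117.7 kb of Sgk1 and 58.1 kb inside the 61.1 kb of Tsc22d3. How much of each span is transcribed was not measured, and the order below may depend on it. In female libraries the median level was 1.67 CPM per kb for Nr3c1, 1.25 for Zbtb16, 1.05 for Sgk1, 0.634 for Nr3c2, 0.161 for Fkbp5 and 0.0304 for Tsc22d3. Neighbours in this order did not overlap across the 12 libraries, except Zbtb16 and Sgk1. In male libraries Zbtb16 led with 1.73 CPM per kb, followed by Nr3c1 with 1.41, Sgk1 with 0.874, Nr3c2 with 0.542, Fkbp5 with 0.148 and Tsc22d3 with 0.0285. There the neighbours Zbtb16 and Nr3c1 were the only pair to overlap. The spread between libraries of 1 group was smallest for Sgk1 in male EE, with a coefficient of variation of 1.82%, and largest for Tsc22d3 in female SH, with 64.6%.

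The genes whose level varied most like each of the 6 across libraries were sought among 8244 genes, by the Pearson correlation of log2 CPM over the 12 libraries of each sex after the mean of each housing group was taken off. The values are descriptions, and the labels do not say which libraries of a sex were prepared or run together. Each is a pick of the highest among these genes, and how high such a pick reaches by chance was not tested. Sgk1 had the closest match, Usp29, with r of 0.927 in females and 0.859 in males, followed by Ano4 with 0.787 and 0.864. Nr3c1 was most like Sept7 (0.705 and 0.72) and Fut9 (0.748 and 0.703), and Nr3c2 most like Foxn3 (0.786 and 0.771) and Htr4 (0.76 and 0.807). Fkbp5 was most like Rnf6 (0.734 and 0.798) and Serpine2 (0.881 and 0.676). Tsc22d3 was most like Dock10 (0.828 and 0.802) and Clmn (0.758 and 0.812), and Zbtb16 most like Atg3 (0.712 and 0.76) and Usp9x (0.686 and 0.678). Female SH replicate 2 had the highest female value of both Fkbp5 and Tsc22d3, and Tsc22d3 had few reads. How far the female r of these genes rests on that library was not tested.

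The receptors act with chaperones, coregulators and ligand-converting enzymes, and 22 of 23 such genes were measured in each sex. In females 10 of 22 were higher and 12 lower in EE, with a median log2 fold change of -0.02, against 50.6% of all genes higher. In males 13 of 22 were higher, with a median of 0.01, against 47.9% of all genes higher. EdgeR called 0 of 22 in either sex, and at an unadjusted p under 0.05 there was 1 higher and 1 lower in females, against 4.53% and 4.14% of all genes, and 1 lower in males, against 3.94%. Hspa8, a constitutive Hsp70 chaperone that loads the receptor onto Hsp90, averaged 9.95 ± 2.56 CPM in female EE and 6.66 ± 1.85 CPM in female SH (log2 fold change 0.59 ± 0.19, edgeR adjusted p = 0.306). Hsp90aa1, the inducible Hsp90, averaged 11.7 ± 1.97 CPM in female EE and 9.50 ± 2.78 CPM in female SH (0.30 ± 0.17, adjusted p = 0.656). Nrip1, a corepressor of nuclear receptors, averaged 43.8 ± 4.15 CPM in female EE and 48.6 ± 3.95 CPM in female SH (-0.15 ± 0.07, adjusted p = 0.559). In males the smallest p-values were those of the Hsp40 chaperone gene Dnajb1 (-0.43 ± 0.16, adjusted p = 0.439), the coactivator gene Ncoa1 (0.07 ± 0.04, adjusted p = 0.649) and the orphan receptor gene Nr2f2 (0.33 ± 0.20, adjusted p = 0.696).

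Other glucocorticoid-responsive genes were likewise mixed. In females 13 of 22 measured genes were higher in EE, against 50.6% of all genes, with a median log2 fold change of 0.05. In males it was 11 of 21, against 47.9% of all genes, with a median of 0.01. EdgeR called 0 of them in either sex, and at an unadjusted p under 0.05 there was 1 higher in females, against 4.53% of all genes, and 2 lower in males, against 3.94%. Dusp1, a phosphatase that shuts off MAP kinases and is also an activity-regulated gene, averaged 4.00 ± 1.21 CPM in female EE and 2.31 ± 1.03 CPM in female SH (log2 fold change 0.80 ± 0.29, edgeR adjusted p = 0.408). Gadd45g, a stress-response gene, averaged 1.42 ± 0.50 CPM in female EE and 0.846 ± 0.535 CPM in female SH (0.74 ± 0.36, adjusted p = 0.578). In males the same gene averaged 1.07 ± 0.26 CPM in EE and 1.57 ± 0.45 CPM in SH (-0.56 ± 0.24, adjusted p = 0.564). Cdkn1a, an inhibitor of the cell cycle, had a log2 fold change of 0.70 ± 0.36 in females (adjusted p = 0.611). In males the corepressor gene Tle3 had -0.19 ± 0.09 (adjusted p = 0.613) and Klf9, a zinc finger gene induced by corticosterone in hippocampal neurons, had 0.16 ± 0.10 (adjusted p = 0.726).

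Open chromatin was unevenly spread over the 6 genes. In the female table Zbtb16 held 55 regions, 54 of them inside its span at 29.7 per 100 kb, and Sgk1 held 28, Nr3c2 15, Nr3c1 14, Fkbp5 9 and Tsc22d3 4. In the male table the numbers were 67 for Zbtb16, 34 for Sgk1, 34 for Nr3c2, 15 for Nr3c1, 5 for Fkbp5 and 4 for Tsc22d3. Male regions were longer, with a median of 0.97 kb in Zbtb16 against 0.43 kb in the female table, so signals summed over regions were compared only within a table. At least 1 base was shared with a male region of the same gene by 115 of the 125 female regions (92.0%). Of all female regions tested, 90.0% shared a base with a male region. With a female region, 78 of the 159 male regions (49.1%) shared at least 1 base.

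The strongest region of each gene did not always sit at the annotated start. In Sgk1 it lay 113.4 kb inside the span, at the internal promoters. There female region chr10:21993876-21997358 averaged 55.1 ± 1.87 CPM in EE and 56.2 ± 2.55 CPM in SH (SD, n = 3 each), with a log2 fold change of -0.03 ± 0.10. By Ensembl gene starts, the gene nearest to this region is 4930444G20Rik. The palindrome of the printed Sgk1 promoter falls in a gap of the female table, 28 bases from the nearest region, and inside male region chr10:21990684-22001907. That male region averaged 89.9 ± 4.92 CPM in EE (n = 6) and 93.2 ± 6.96 CPM in SH (n = 7), with a log2 fold change of -0.05 ± 0.05 (edgeR adjusted p = 1.0). In Tsc22d3 the internal promoter region at chrX:140541541-140543635 held 80.2% of the summed female signal of the gene, with 23.9 ± 2.16 CPM in EE and 24.9 ± 3.51 CPM in SH. In Nr3c2 the start region chr8:76898471-76902658 led, with 61.1 ± 3.85 CPM in EE and 63.8 ± 5.91 CPM in SH in females. In Nr3c1 the start region chr18:39490757-39492299 averaged 17.2 ± 2.18 CPM in EE and 18.8 ± 0.96 CPM in SH in females (log2 fold change -0.13 ± 0.12, adjusted p = 0.851). The groups overlapped at each of these regions.

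Zbtb16, whose RNA showed no detectable difference with housing, had lower ATAC signal in female EE libraries along most of its length. Of its 55 female regions, 47 had a negative log2 fold change (85.5%), with a median of -0.27, whereas 51.7% of all 164926 regions tested were negative and their median was -0.01. Summed over the 55 regions, the signal was 229.8, 225 and 245 CPM in the 3 EE libraries, against 263, 305 and 292 CPM in the 3 SH libraries. Every EE sum lay below every SH sum. In 15 of the 55 regions (27.3%) every EE library lay below every SH library, against 6.3% of all regions, and in 2 every EE library lay above, against 6.46%. In 13 (23.6%) the unadjusted p was under 0.05 with EE lower, against 3.48% of all regions, and in 0 with EE higher, against 4.53%. EdgeR called 0 of the 55 after adjustment over all regions, of which 0.0473% were called. The regions of a gene share their libraries, so these counts are not independent.

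The 13 regions lay from 32.4 to 162.8 kb after the start, inside the gene, and the start region was not among them. For the region at 162.8 kb the nearest gene start is that of Nnmt. The smallest p belonged to chr9:48723077-48724327, which had 12.5, 12.7 and 13.2 CPM in EE and 16.3, 21.2 and 17.97 CPM in SH. Its log2 fold change was -0.52 ± 0.13, with an edgeR adjusted p of 0.0865, and with each library left out the adjusted p ran from 0.0292 without SH replicate 1 to 0.492 without SH replicate 2. The strongest region of the gene, chr9:48734906-48738133, had 36.6, 34.7 and 39.6 CPM in EE and 46.7, 49.6 and 48.4 CPM in SH, with a log2 fold change of -0.38 ± 0.10 (adjusted p = 0.121). A weaker region, chr9:48753696-48754122, had 1.60, 1.55 and 2.71 CPM in EE and 3.46, 3.18 and 3.93 CPM in SH (-0.85 ± 0.25, adjusted p = 0.223). At these 3 regions the groups did not overlap. At the start, chr9:48834768-48836351 had 12.5, 11.6 and 13.2 CPM in EE and 9.67, 17.2 and 13.04 CPM in SH, with EE inside the SH range and a log2 fold change of -0.09 ± 0.15. Leaving out each female library in turn moved the median over the 55 regions between -0.36 and -0.24 and the number of negative regions between 43 and 48. Scaling by total count alone gave a median of -0.26.

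In the male table the median over Zbtb16 was closer to 0. There 47 of 67 regions (70.1%) were negative, against 50.3% of all regions, and the median was -0.05, against -0.001 over all regions. The summed signal ranged from 241 to 341 CPM with a median of 276 in EE and from 234 to 308 CPM with a median of 300.0 in SH, and the groups overlapped. At an unadjusted p under 0.05, 4 regions were lower, against 1.92% of all regions, and 1 was higher, against 2.62%. EdgeR called 0, with a background of 0.0% of 192834 regions. In 0 of the 67 regions did the groups lie wholly apart, against 0.0596% of all regions with EE lower and 0.0638% with EE higher. With each male library left out, the median ran from -0.11 without EE replicate 3 to -0.02 without EE replicate 2, and the number of negative regions from 35 without EE replicate 2 to 55 without EE replicate 3 or SH replicate 6. The number at an unadjusted p under 0.05, 5 in all, ran from 3 without EE replicate 4 to 11 without EE replicate 3, and was 9 without SH replicate 6. The smallest p belonged to chr9:48692844-48693289, which averaged 0.598 ± 0.097 CPM in EE and 0.960 ± 0.213 CPM in SH, with a log2 fold change of -0.69 ± 0.20 (unadjusted p = 0.00131, adjusted p = 1.0). Next was chr9:48689737-48690613, with 1.29 ± 0.27 CPM in EE and 1.98 ± 0.71 CPM in SH (-0.66 ± 0.21, unadjusted p = 0.00401, adjusted p = 1.0). They lie 143.2 and 146.0 kb after the start and have the sign of the female median, and the groups overlapped at both. Both lie inside the Zbtb16 span, but the nearest gene start is that of Nnmt, as for the lower region at 160.4 kb. Of the 3 female regions named above, the overlapping male regions had log2 fold changes of -0.03, 0.03 and 0.32. The last of these, chr9:48753706-48754630, has the third smallest p of the male regions and averaged 3.46 ± 0.52 CPM in EE and 2.77 ± 0.27 CPM in SH (0.32 ± 0.11, unadjusted p = 0.00922, adjusted p = 1.0), opposite in sign to the female region. Of 52 pairs of overlapping Zbtb16 regions, 32 had the same sign in both sexes (61.5%), 30 of them negative in both. Over all regions 53.4% of pairs had the same sign. Most Zbtb16 regions are negative in each table, so a share above that is met also without agreement region by region. The pairs hold 52 female but only 31 male regions and are not independent. The difference between the sexes was not tested for regions, since the tables hold different region sets.

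**Figure D3:**
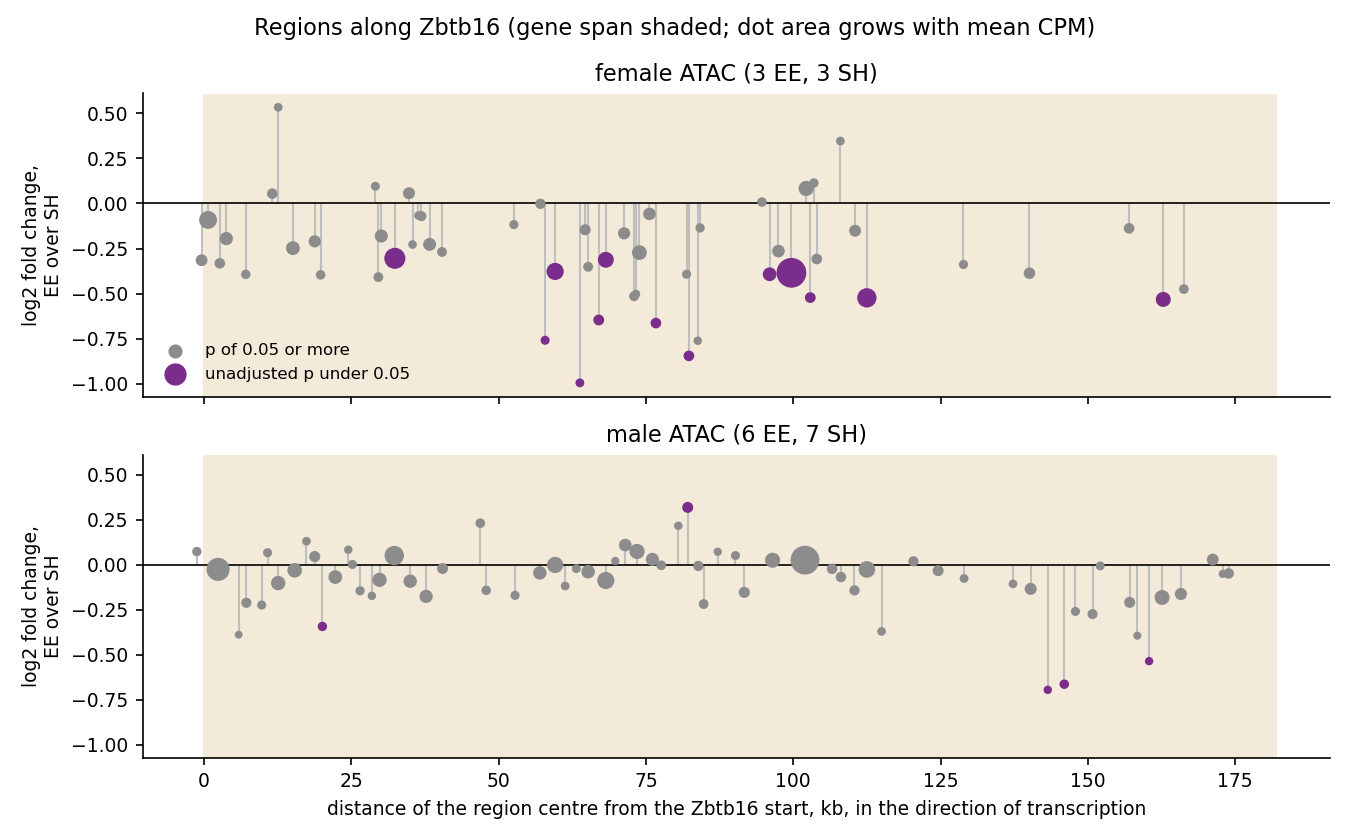
Log2 fold change of EE over SH (y axis) of each Zbtb16 region by the distance of its centre from the gene start in kb (x axis), for the female and the male ATAC table; dot area grows with mean CPM and purple marks an unadjusted p under 0.05. In females 47 of 55 regions lie below 0 and the purple dots run from 32.4 to 162.8 kb, while in males most regions lie close to 0.

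Fkbp5 also had lower values in female EE libraries, in all 9 of its regions, with a median log2 fold change of -0.28. For those at 102.2, 110.0 and 110.8 kb after the start, the nearest gene start is that of Tulp1. The summed signal was 43.6, 41.4 and 48.1 CPM in EE, against 47.3, 61.2 and 58.2 CPM in SH, and the groups overlapped through EE replicate 3 and SH replicate 1. At the annotated start, chr17:28517505-28518158 had 4.22, 3.06 and 4.37 CPM in EE and 5.75, 6.03 and 6.54 CPM in SH. The groups did not overlap there, with a log2 fold change of -0.65 ± 0.20 (edgeR adjusted p = 0.226, unadjusted p = 0.00131). At the RefSeq promoter printed above, region chr17:28486103-28486437 averaged 6.26 ± 0.41 CPM in EE and 7.26 ± 1.04 CPM in SH (-0.21 ± 0.17, adjusted p = 0.825), with overlap. The strongest region, chr17:28522473-28524381, lies 5.9 kb before the start and averaged 19.9 ± 1.46 CPM in EE and 25.0 ± 4.76 CPM in SH (-0.33 ± 0.12, adjusted p = 0.411), also with overlap. Of 5 male regions, 3 were positive, and the start region had a log2 fold change of 0.12 ± 0.13 (adjusted p = 1.0). The summed male signal ranged from 27.5 to 41.7 CPM in EE and from 22.8 to 36.0 CPM in SH.

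The receptor genes and the remaining targets showed smaller shifts. Nr3c1 had 8 of 14 regions positive in females, with a median of 0.02 that ran from -0.0374 to 0.1126 with each library left out, and 14 of 15 negative in males, with a median of -0.09. The male start region, chr18:39488457-39492064, ranged from 24.8 to 33.9 CPM in EE and from 25.7 to 33.4 CPM in SH, with a log2 fold change of -0.12 ± 0.07 (edgeR adjusted p = 1.0), and the summed signal of the gene overlapped between groups. The number of negative male regions ran from 10 without EE replicate 2 to 15 without EE replicate 3. Nr3c2 had 11 of 15 regions positive in females, with a median of 0.14, and 23 of 34 in males, with a median of 0.05. Single libraries turned both: without female EE replicate 2, 7 of 15 were positive with a median of -0.0177, and without male EE replicate 4, 14 of 34 were positive with a median of -0.0314. Its 3 female regions with an unadjusted p under 0.05 were higher in EE, against 4.53% of all regions, with log2 fold changes from 0.40 to 0.48, and lay from 24.8 to 290.1 kb after the start. With each library left out the number fell to between 0 and 2, and it was 0 without EE replicate 2 or SH replicate 3. Sgk1 was balanced, with 13 of 28 regions positive in females and 18 of 34 in males, and its summed signal was 220.4 ± 6.89 CPM in EE and 223 ± 5.69 CPM in SH in females. Its start region averaged 21.3 ± 1.02 CPM in EE and 20.7 ± 0.27 CPM in SH in females (0.04 ± 0.12, adjusted p = 0.964). Tsc22d3 had 1 of 4 regions positive in females and 3 of 4 in males, and its female start region averaged 2.38 ± 0.30 CPM in EE and 2.27 ± 0.42 CPM in SH (0.08 ± 0.26, adjusted p = 0.971).

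Over all 6 genes, edgeR called 0 of 125 female regions and 0 of 159 male regions, and so did DESeq2 and limma voom. Its own filter left 73 of the 125 female and 23 of the 159 male regions with no adjusted p in DESeq2. At an unadjusted p under 0.05 there were 4 higher and 16 lower female regions, against 8.01% of all regions in either direction, and 2 higher and 5 lower male regions, against 4.54%. The summed female signal was 711 to 723 CPM in EE and 748 to 823 CPM in SH. Without Zbtb16 it was 482, 498 and 478 CPM in EE and 486, 518 and 490.2 CPM in SH, and the groups overlapped. Among the cell-type marker genes in the female table, 34 of 53 neuronal regions, 23 of 37 astrocyte regions and 11 of 14 oligodendrocyte precursor regions were negative, with medians of -0.06, -0.06 and -0.19. Of the other lists, 16 of 32 oligodendrocyte, 3 of 6 microglial and 5 of 7 vascular regions were negative, with medians of -0.0019, -0.0052 and -0.06. Their part in the Zbtb16 values was not tested.

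**Figure D4:**
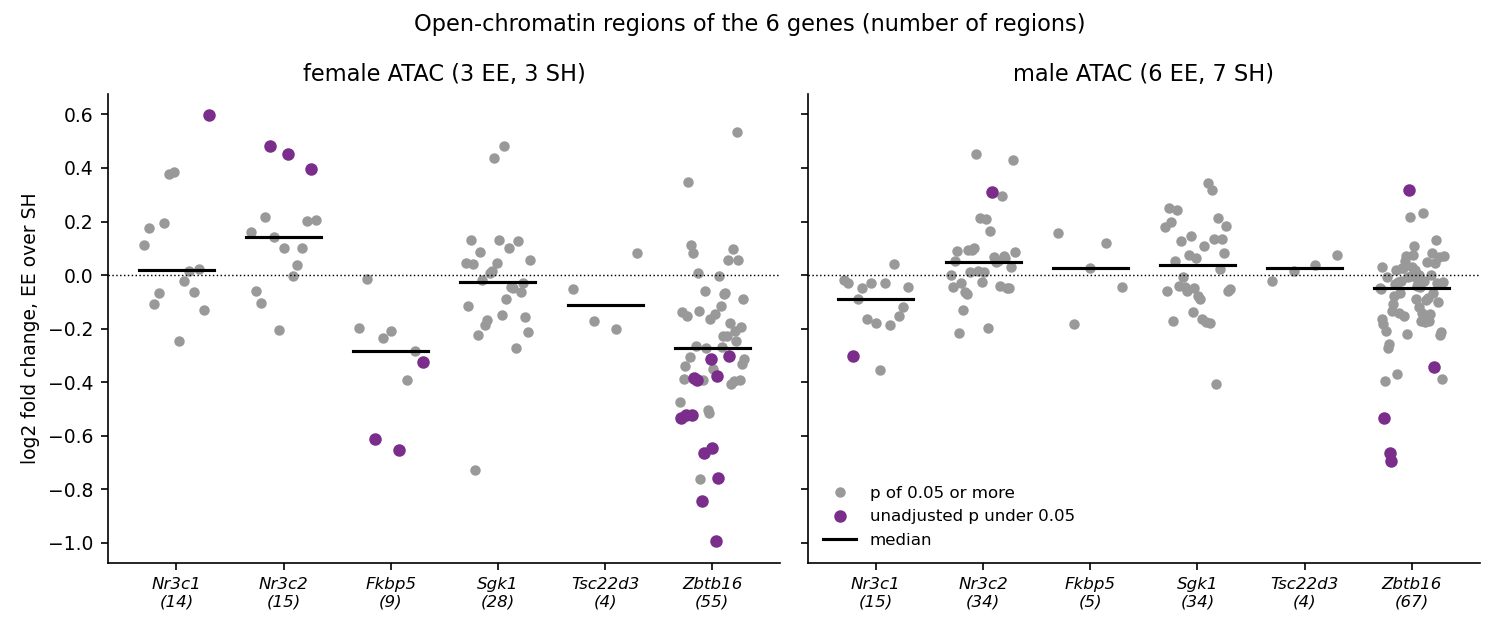
Log2 fold change of EE over SH (y axis) for every region of each gene (x axis, with the number of regions) in the female and the male ATAC table; black lines are medians and purple marks an unadjusted p under 0.05. The female medians of Zbtb16 and Fkbp5 lie at -0.27 and -0.28, and the male medians of all 6 genes lie between -0.09 and 0.05.

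**Figure D5:**
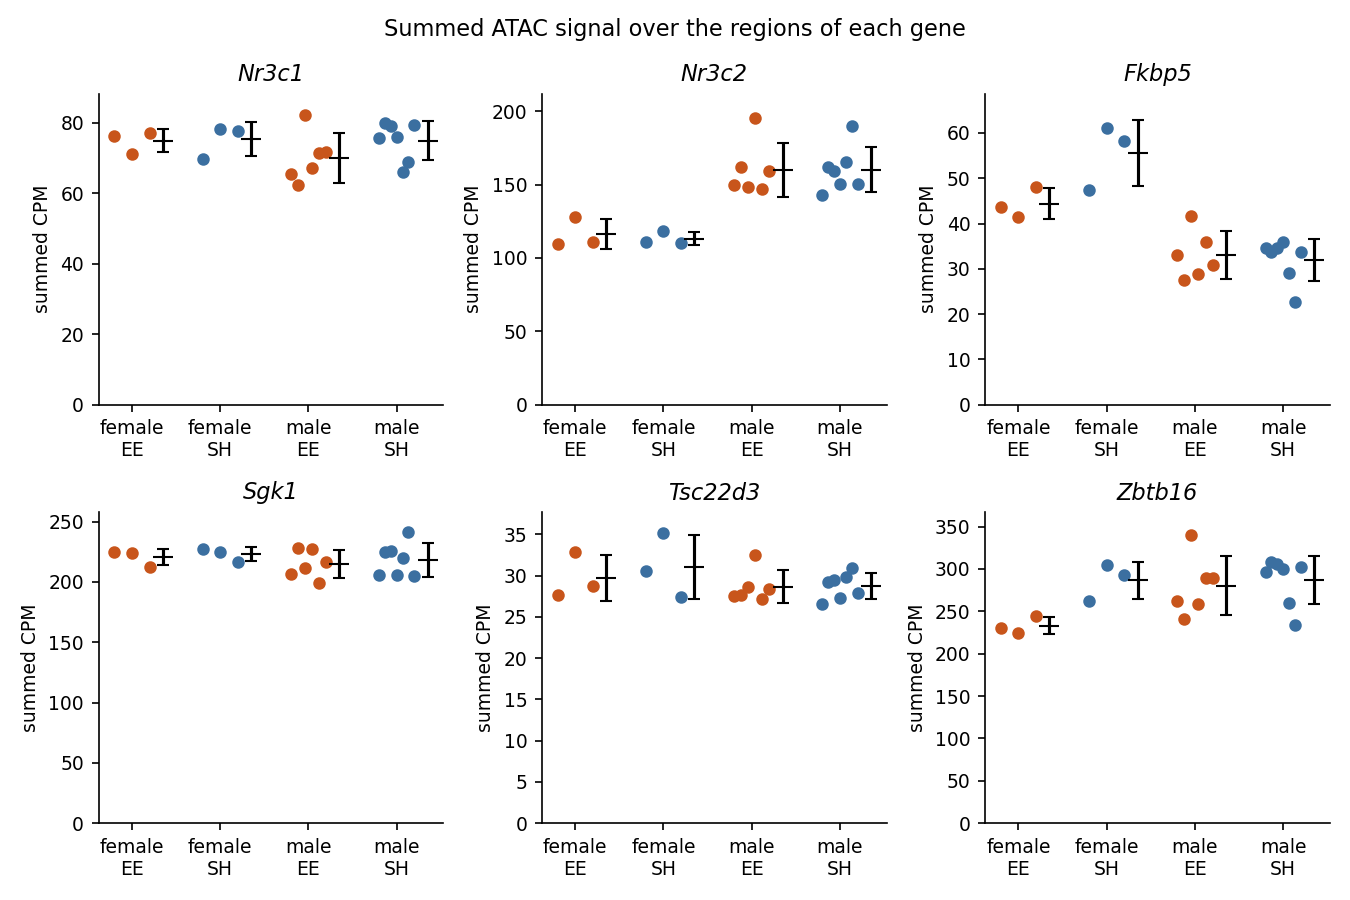
ATAC signal summed over the regions of each gene, in CPM (y axis), for each library by sex and housing (x axis); dots are libraries and bars the mean and SD. In Zbtb16 the 3 female EE libraries lie below the 3 female SH libraries, and the male groups overlap; sums differ between sexes also through the region sets.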

How the data were processed

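Nuclear RNA and open chromatin were counted in 43 libraries, in 1 table per sex and assay. The deposited tables hold raw counts (RNA: reads over the introns and exons of each Ensembl gene; ATAC: reads per region), with no normalization by the authors. The submitters' processing notes name build mm10, STAR 2.5.4, MACS2 2.1.1, DiffBind 3.2.2, edgeR, DESeq2 1.16.1, bedtools and SAMtools 1.3.1. How reads were counted, with or without strand, and how regions were merged is not given in the sources used here. Columns of the male RNA table were read by position, since its header lacks the name of the ID column. Region coordinates stand as in the tables, and whether they count from 0 or 1 is not given.

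All genes or regions of a table were fitted together, table by table, in edgeR 4.0.16 (R 4.3.3), after TMM scaling and filterByExpr, with housing tested by the robust quasi-likelihood F test (two-sided). A call is a Benjamini-Hochberg adjusted p under 0.05 over all of them. Log2 fold changes are EE over SH, and their standard error (SE) is their size over the square root of F. CPM use TMM library sizes. The interaction of sex and housing was fitted over all 24 RNA libraries. The scripts were tested on simulated counts. Alternatives were other scalings, DESeq2 1.42.0, limma voom (3.58.1), no low-count filter, a replicate block, a covariate for non-neuronal markers, other region rules and each library left out.

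The genes and lists were chosen with earlier results of these data known. Named from the lists are the 3 genes with the smallest p per sex and any called. Named regions are the start regions nearest to a gene start within 1 kb and the 3 with the smallest p per table; male start regions not described overlapped between groups. Regions described beyond these, such as the strongest of each gene, were chosen after their values were seen. In deviation from their group mean, same-numbered EE and SH libraries correlated at 0.036 to 0.306 in female RNA and -0.03 to 0.226 in male RNA. In ATAC the range was -0.071 to 0.07 in females and -0.103 to 0.171 in males. Differently numbered libraries had -0.276 to 0.344 in female RNA and -0.208 to 0.144 in male RNA. Of 6 EE libraries, 3 in female RNA and 2 in male RNA correlated best with their own number. The labels name no pairs and the main fits took none, which leaves pairing unsettled. With the number as a block, calls over all genes went from 0 to 95 in female RNA and from 6 to 3 in male RNA. The depth of each group stands in the report and limits what could be detected.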

Additional observations from a re-analysis of the deposited data

Results flagged for a closer look

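Within groups of 6 or 7 libraries, the highest or lowest value was compared with the rest by Dixon's criterion for each of the 6 genes and each named region, in 42 groups of libraries. In 7 of them a library stood apart, and chance alone flags about 1 in 20 groups. Fkbp5 RNA was 26.3 CPM in female SH replicate 2, against 16.5 to 19.8 CPM in the other SH libraries. Tsc22d3 RNA was 5.38 CPM in the same library, against 1.17 to 2.52 CPM in the others. This library also had the highest levels of glial and vascular markers among female SH libraries, and the part of other cell types in its Fkbp5 and Tsc22d3 values was not tested. Sgk1 RNA was 99.5 CPM in male EE replicate 2, against 103 to 105 CPM in the other EE libraries.

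Among male ATAC regions, the Fkbp5 start region chr17:28517455-28518728 was at 2.78 CPM in SH replicate 6, against 4.34 to 5.50 CPM in the other SH libraries. EE replicate 3 had the highest value at the Nr3c1 start region chr18:39488457-39492064, 33.9 CPM against 24.8 to 27.4 CPM. It also had the highest value at the Zbtb16 region chr9:48753706-48754630, 4.50 CPM against 3.11 to 3.36 CPM in the other EE libraries. The Nr3c2 start region chr8:76898150-76902616 was at 62.4 CPM in EE replicate 4, against 50.4 to 54.0 CPM in the others.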

How the results depend on the processing

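EdgeR called 0 of the 6 genes in male RNA (6 of all genes) and DESeq2 called 1 (49 of all genes). In male RNA DESeq2 left 10471 of 14597 genes with no adjusted p. In the interaction edgeR called 0, against 1 with DESeq2, 1 without a low-count filter and 1 with the replicate block. It called 0 to 1 with each library left out, against 0 to 39 of all genes. Interaction calls over all genes were 1 with edgeR, 92 with DESeq2, 92 without the filter and 28 with the block. There DESeq2 left 11465 of 15562 genes with no adjusted p. For female ATAC regions the calls ran from 0 to 1 with each library left out, against 22 to 333 of all regions. Shared female regions numbered 115 with 1 base of overlap and 25 with at least 50% of each region. The replicate block changed no other call. Near 0, signs turned, the causes of which were not tested. Female Zbtb16 RNA was at -0.0048 with RLE scaling, -0.005 with DESeq2, -0.0022 with limma voom and -0.0008 with the replicate block. Male Tsc22d3 RNA was at -0.0241 with total count scaling, -0.0353 with limma voom, -0.0296 with the block and -0.0793 with the marker covariate. Male Zbtb16 RNA was at -0.0224 with total count scaling and -0.0032 with the covariate. With each library left out, log2 fold changes ran from -0.0101 to 0.0585 for female Nr3c2 RNA, from -0.432 to 0.1619 and from -0.215 to 0.1026 for female and male Tsc22d3, and from -0.0274 to 0.0265 and from -0.0499 to 0.0378 for female and male Zbtb16. In the interaction they ran from -0.4434 to 0.1517 for Tsc22d3 and from -0.0456 to 0.0415 for Zbtb16. For start regions they ran from -0.1212 to 0.0117 (female Nr3c2), -0.0951 to 0.0036 (male Nr3c2), -0.2739 to 0.1339 (female Zbtb16), -0.1107 to 0.0111 (male Zbtb16) and -0.0102 to 0.2386 (female Tsc22d3). Few libraries per ATAC group and few reads per region or for Tsc22d3 limit what could be detected. The filter of DESeq2 left 2 of the 6 genes in male RNA and 1 in female RNA with no adjusted p.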

Other observations

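The release of corticosterone is driven by corticotropin releasing hormone (CRH), which cortical interneurons also make. The list followed here holds genes of CRH signalling and also genes of vasopressin, oxytocin and PACAP signalling. In sorted frontal neurons the listed genes with the smallest p per sex averaged from 0.454 to 5.57 CPM per housing group. Of the 10 listed genes, 7 were measured in females, with 2 higher and 5 lower in EE, and 6 in males, with 3 higher and 3 lower. Of all genes, 50.6% were higher in females and 47.9% in males. EdgeR called 0 in either sex, and at an unadjusted p under 0.05 there was 1 of 7 in females, Crh itself, against 8.67% of all genes. Crh averaged 0.849 ± 0.374 CPM in female EE and 0.454 ± 0.260 CPM in female SH (SD, n = 6 each; log2 fold change 0.90 ± 0.43, edgeR adjusted p = 0.576). Crhr2, a receptor of this peptide family, averaged 1.84 ± 0.70 CPM in female EE and 1.31 ± 0.65 CPM in female SH (0.48 ± 0.32, adjusted p = 0.712), and 1.15 ± 0.50 CPM in male EE and 1.3 ± 0.16 CPM in male SH (-0.18 ± 0.26, adjusted p = 0.906). Adcyap1, the precursor of the neuropeptide PACAP, had a log2 fold change of -0.32 ± 0.22 in females (adjusted p = 0.717) and 0.12 ± 0.15 in males (adjusted p = 0.891). Crhbp, a protein that binds CRH and limits its action, had 0.35 ± 0.31 in males (adjusted p = 0.823).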
